A study of Mus musculus with 32 samples.

Results

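Expression of 35 genes for cytosolic and mitochondrial chaperones was followed through 8 sorted fractions of mouse bone marrow at 2 ages. The genes were taken by symbol from the 24421 rows of the raw count table, none of them by its level. They were chosen with earlier results of these data known. All 35 passed the filter on low counts that left 14154 genes for testing. The cells came from female C57BL/6 mice with no transgene and no treatment, aged 10 weeks (Young) or 20 months (Aged) in every fraction. The fractions are hematopoietic stem cells (HSCs), multipotent progenitors (MPPs) 1 to 4, common lymphoid progenitors (CLPs), the granulocyte-macrophage (GMPs) and the megakaryocyte-erythrocyte progenitors (MEPs), with 2 libraries in each of 16 groups. Marrow of several mice of an age was combined before duplicate sorts according to 1 statement of the study, which elsewhere calls the duplicates biological, so errors and p-values here may cover sorting and library preparation without the variation between mice.

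Chaperones bind unfolded or partly folded proteins and release them in cycles driven by ATP. In the cytosol, Hsp70 proteins take up new and damaged chains with the help of J-domain proteins, Hsp90 completes the folding of kinases and receptors, and the ring-shaped TRiC chaperonin folds actin and tubulin. In mitochondria the same work falls to mortalin (Hspa9), to the Hsp60 and Hsp10 pair (Hspd1 and Hspe1) and to Trap1. Some of these genes are made in all growing cells, whereas others are held low and are induced by heat shock factor 1 when unfolded protein accumulates. Blood stem cells are known for a low rate of protein synthesis and a low tolerance of misfolded protein.

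Total counts ran from 11237384 to 17723245 per library, and the fractions carried the transcripts of the antigens used to sort them. Levels are given as CPM, the count of a gene relative to the total of its library after scaling by the TMM factors of edgeR. In young cells Slamf1 stood at 53.9 CPM in HSCs and 0.321 in MPP4, Flt3 at 1063 in MPP4, Fcgr3 at 481 in GMPs and Il7r at 158 in CLPs, while Ly6a was 0.256 in MEPs. Levels in bulk samples cannot tell fewer cells of a kind from less RNA per cell. Duplicates were close for most of these genes. Over the 545 combinations of member and group with at least 10 counts in both libraries, the higher duplicate was a median of 1.05 times the lower, and in 10 combinations they were 1.5-fold or more apart. Of those 10, 6 were Hspa1a and Hspa1b in aged GMPs, MEPs and CLPs.

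To ask how the chaperones changed with age, Aged was compared with Young in each fraction by edgeR's quasi-likelihood test, and genes with a Benjamini-Hochberg adjusted p under 0.01 were called. Many members rose in aged MPPs and many fell in aged GMPs. In HSCs 5 of 35 members rose and 0 fell, where 3.74% of all tested genes rose and 1.66% fell. In MPP1 13 rose and 0 fell, against 4.71% and 2.09% of all genes. MPP2 had 18 higher and 0 lower, against 4.49% and 3.31%. MPP3 had 20 higher and 0 lower, against 8.14% and 5.79%. MPP4 had 24 higher and 2 lower, against 10.3% and 6.27%. The balance was the other way in GMPs, with 5 higher and 18 lower, against 9.93% and 8.97%. MEPs were mixed, with 9 higher and 6 lower, against 9.09% and 11.7%. CLPs had 3 higher and 8 lower, against 5.71% and 4.73%. The median log2 fold change of the members rose from 0.10 in HSCs to 0.24, 0.29, 0.30 and 0.38 in MPP1 to MPP4 and was -0.24 for GMPs, 0.01 for MEPs and -0.06 for CLPs, beside medians of all genes between -0.04 and 0.02.

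Across fractions, 131 of the 280 combinations of member and fraction were called (46.8%), where 12.6% of such combinations were called over all genes. All genes were not matched to the members by count. Of the members, 33 had at least 10 counts in all 32 libraries, and a change is called more easily at higher counts. These shares therefore do not show that chaperones were called more often than other genes of like counts. The same holds for the other shares of all genes given here. Called in at least 1 fraction were 33 members, of which 17 rose in some fractions and fell in others, 11 only rose and 5 only fell. Hspb1 and Hsf2, which had the fewest counts, were called in none. Rises in all of MPP1 to MPP4 were called for 12 members, and 14 members rose in MPP4 and fell in GMPs. Most of these counts fell when 1 library was left out, which leaves 1 library in its group. That takes data from the test whichever library is removed, so fewer calls do not by themselves point to that library. In some comparisons leaving out a library gave more calls instead. In HSCs 0 members were called without the second young HSC library and 1 without the first. With 1 library left out, 4 to 11 were called higher in MPP1, 9 to 14 in MPP2, 15 to 20 in MPP3 and 17 to 23 in MPP4. In GMPs 10 to 15 were called lower, with the 10 reached when the first or the second aged GMP library was left out. In CLPs the fit on the 4 CLP libraries alone called 0 in either direction.

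**Figure D1:**
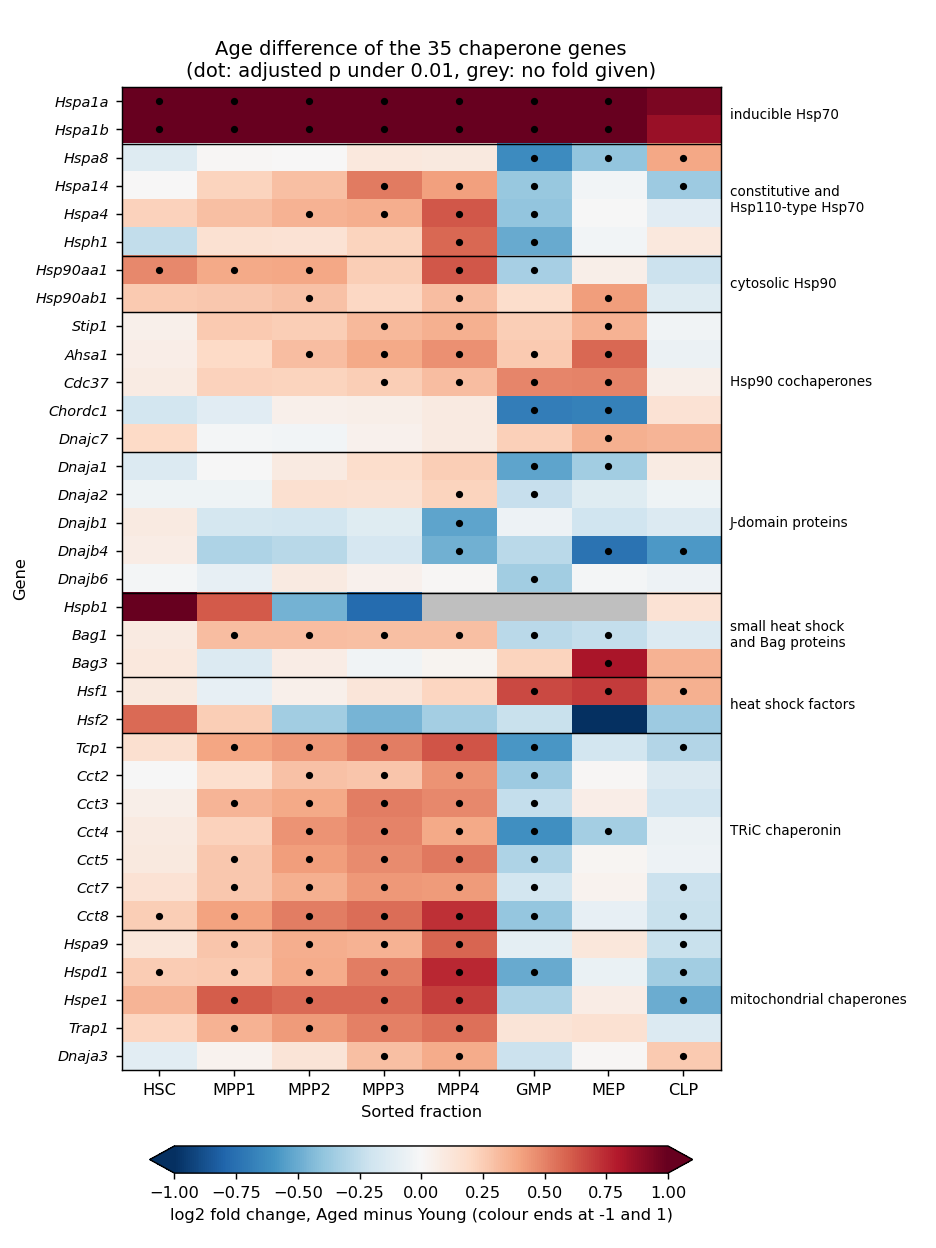
Log2 fold change of the 35 chaperone genes (rows, grouped by function) between Aged and Young cells in 8 sorted fractions (columns). Red is higher and blue lower in aged cells, colours end at -1 and 1, dots mark an adjusted p under 0.01 and grey marks a gene at or near 0 counts. TRiC and mitochondrial chaperones are red and mostly dotted through the MPPs (not Cct2 and Cct4 in MPP1 nor Dnaja3 in MPP1 and MPP2) and TRiC blue and dotted in GMPs, while the inducible Hsp70 genes are beyond the colour scale in 7 fractions.

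The largest called changes were in the inducible Hsp70 genes Hspa1a and Hspa1b, which were higher in aged cells of 7 of 8 fractions. They encode nearly the same protein, the Hsp70 made on heat shock and other stress, and lie 9951 bases apart on the minus strand of mouse chromosome 17 (GRCm38, the same build as mm10), Hspa1a at chr17:34969190-34972156 and Hspa1b at chr17:34956436-34959238. Their coding sequences match at 1915 of 1923 aligned bases (99.58%), and 79.7% of the 60-base windows of the Hspa1a coding sequence occur in Hspa1b. A 60-base read from such a window fits both genes, so the division of counts between them is uncertain. In the annotation 564 exon bases of Hspa1a are also part of Gm20481, a gene of the opposite strand with no row in the count table. The promoter sequences of the pair in RefSeq (GRCm38.p6) run from 250 bases before to 50 after the start of the gene and are the same at 296 of 300 positions. They are shown because both genes rose together. Capitals mark GAA NN TTC or TTC NN GAA written without the spaces, an inverted pair of the units that heat shock factors bind, searched on both strands.
Hspa1a (chr17:34972107-34972406, minus strand): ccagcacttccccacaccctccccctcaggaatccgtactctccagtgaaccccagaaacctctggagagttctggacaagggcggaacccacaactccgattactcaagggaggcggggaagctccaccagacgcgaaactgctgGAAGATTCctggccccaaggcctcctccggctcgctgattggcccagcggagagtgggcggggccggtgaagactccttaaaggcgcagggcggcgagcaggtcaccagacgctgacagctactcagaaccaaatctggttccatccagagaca
Hspa1b (chr17:34959189-34959488, minus strand): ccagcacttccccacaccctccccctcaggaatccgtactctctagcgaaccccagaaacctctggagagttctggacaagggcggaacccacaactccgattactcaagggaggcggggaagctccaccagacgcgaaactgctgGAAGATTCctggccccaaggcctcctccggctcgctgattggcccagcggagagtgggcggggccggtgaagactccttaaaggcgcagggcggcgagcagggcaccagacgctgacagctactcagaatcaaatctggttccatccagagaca
Each holds 1 such pair. Of the 27025 genes with a promoter in the same source, 17% had at least 1 pair in any of their promoters.

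In young cells the pair was low, and per kilobase of transcript only Bag3, Hsf2 and Hspb1 were lower on average over the fractions. Hspa1a read 3.81 and 2.54 CPM in the young HSC libraries and 29.5 and 33.2 in the aged ones. In MPP1 the values were 6.15 and 5.77 in young and 52.9 and 50.6 in aged libraries. MPP2 libraries held 21.04 and 17.6 when young and 96.9 and 113 when aged. Young and aged libraries did not overlap in any of these 3 fractions.

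In MPP3 Hspa1a stood at 15.3 and 17.7 CPM in young and 95.0 and 133 in aged libraries. In MPP4 it stood at 14.7 and 11.3 in young and 128 and 139 in aged libraries. GMPs had 6.34 and 6.29 CPM when young, against 376 and 755 when aged, the highest level of any group. All aged libraries lay above all young ones here too, and the aged GMP duplicates were 2.01-fold apart.

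In MEPs the young libraries held 5.19 and 6.10 CPM and the aged ones 67.0 and 263. In CLPs the young libraries already held 57.9 and 59.0 CPM, and the aged ones 58.0 and 167. One aged CLP library thus lay between the young ones and the other above them, and the aged MEP duplicates were 3.92-fold apart. Hspa1b was close to Hspa1a in each library. Its CPM values were 4.29 and 4.04 young against 36.0 and 37.9 aged in HSCs, 6.89 and 6.84 young against 56.7 and 56.1 aged in MPP1, 25.2 and 20.7 young against 103 and 121 aged in MPP2 and 15.8 and 19.8 young against 99.5 and 145 aged in MPP3. The later fractions held 17.1 and 14.8 young against 131 and 140 aged in MPP4, 8.69 and 7.05 young against 365 and 743 aged in GMPs, 8.77 and 7.61 young against 72.1 and 285 aged in MEPs and 63.7 and 65.2 young against 62.0 and 172 aged in CLPs. As for Hspa1a, the 2 ages overlapped in CLPs and in no other fraction. Hspa1a held between 37.2% and 50.7% of the counts of the pair in all 32 libraries, on 39 to 8476 counts of Hspa1a and 53 to 8343 of Hspa1b.

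**Figure D2:**
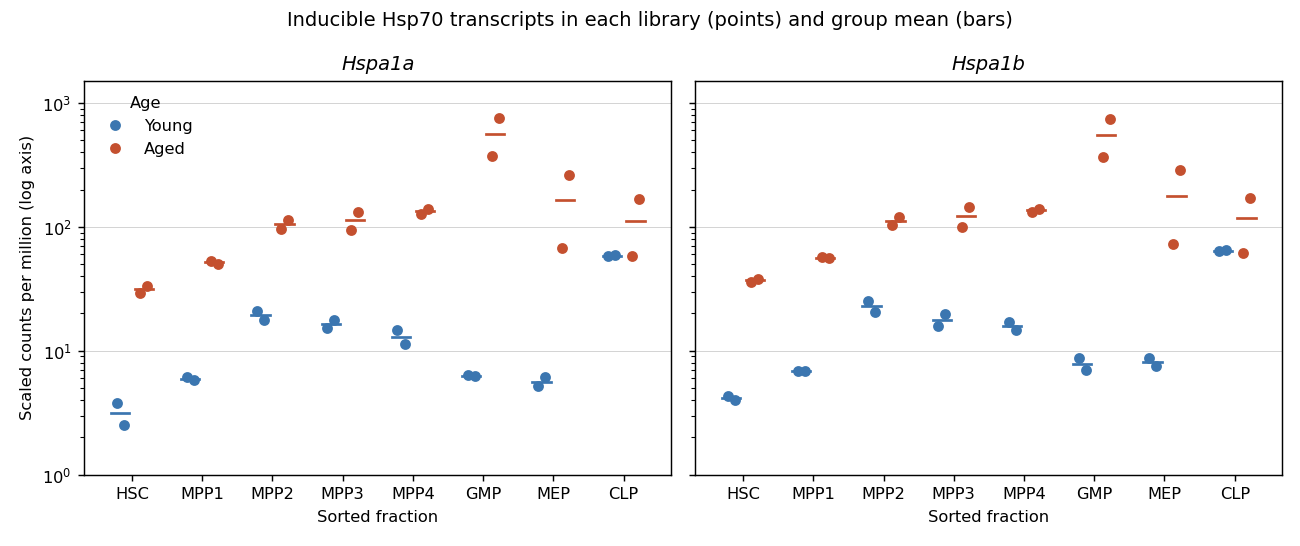
Scaled CPM (log axis) of Hspa1a and Hspa1b in each of 32 libraries (points) with the mean of each group (bars), by sorted fraction and age. Aged points lie above young points in 7 fractions. In CLPs 1 aged Hspa1a library at 58.0 sits between the young ones at 57.9 and 59.0.

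The log2 fold change of Hspa1a with age was 3.32 ± 0.61 in HSCs (SE, edgeR adjusted p 0.000870). For MPP1 it was 3.12 ± 0.53 (0.000421), for MPP2 2.44 ± 0.47 (0.00131), for MPP3 2.79 ± 0.48 (0.000227) and for MPP4 3.35 ± 0.49 (3.10e-05). It was larger in GMPs, 6.48 ± 0.56 with an adjusted p of 5.60e-08, and in MEPs, 4.87 ± 0.55 with an adjusted p of 6.79e-07. Hspa1b gave 3.15, 3.04, 2.28, 2.78 and 3.08 in HSCs and MPP1 to MPP4, 6.14 in GMPs and 4.44 in MEPs. In CLPs neither was called, at 0.94 for Hspa1a and 0.86 for Hspa1b. Without the second aged CLP library these became -0.03 and -0.07, and without the first 1.51 and 1.42.

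The age difference itself was then compared between fractions. The age difference of Hspa1a in GMPs exceeded its mean over MPP1 to MPP4 by 3.56 ± 0.58 on the log2 scale (edgeR, adjusted p 5.05e-05), and in CLPs it fell short of that mean by 1.98 ± 0.50 (0.00402). In HSCs and MEPs the difference was 0.40 ± 0.69 and 1.95 ± 0.59 and was not called. With a library left out, the calls in MPP3, MPP4, GMPs and MEPs held, with Hspa1a at 5.89 to 6.90 in GMPs and 3.53 to 5.51 in MEPs. The calls of both genes in HSCs were lost without either young HSC library, those in MPP1 without either young MPP1 library, and those in MPP2 without either young library or the second aged one. Over all alternatives the log2 fold change of Hspa1a stayed between 2.99 and 3.59 in HSCs (adjusted p up to 0.0322), 3.07 and 3.18 in MPP1 (up to 0.0119) and 2.32 and 2.57 in MPP2 (up to 0.0270).

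Immediate early genes, which cells switch on within minutes of a stimulus, were read as a measure beside the Hsp70 result. Of 18 such genes, 13 were higher in aged GMPs and 0 lower, and their summed level was 476 to 482 CPM in young and 2393 to 2742 in aged GMP libraries. In aged CLPs 13 of 18 were lower and 0 higher, with sums of 8137 to 8788 in the young and 2489 to 4914 in the aged libraries. In the other fractions between 1 and 3 were higher and between 0 and 6 lower. Aged MEPs had 3 higher and 2 lower, with sums of 298 to 394 in the young and 596 to 632 in the aged libraries, and Atf3 at 0 in all 4. Young HSC libraries had sums of 22213 to 22686 and aged ones 24055 to 27090. In MPP1 to MPP4 sums lay between 13270 and 22795 in young and 13270 and 19120 in aged libraries. The part of these genes in the Hsp70 result was not tested.

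Other heat-inducible members had smaller changes. Dnajb1, the J-domain partner of inducible Hsp70 and itself heat-inducible, read 301 and 318 CPM in young and 314 and 345 in aged HSC libraries. In MPP4 it read 325 and 320 CPM in young and 220 and 227 in aged libraries. It was lower in MPP4, with a log2 fold change of -0.53 and an adjusted p of 1.08e-05, and was not called in the other 7 fractions, where it ranged from -0.20 to 0.09. In GMPs, where Hspa1a rose most, Dnajb1 stood at 127 and 137 CPM in young and 124 and 132 in aged libraries. The other values of Dnajb1 were 272 and 273 young against 244 and 240 aged in MPP1, 253 and 239 young against 213 and 221 aged in MPP2, 249 and 264 young against 220 and 252 aged in MPP3, 238 and 264 young against 213 and 225 aged in MEPs and 189 and 187 young against 173 and 168 aged in CLPs.

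Hsph1 encodes the Hsp110-type exchange factor that resets Hsp70 and is also heat-inducible. Its GMP libraries held 163 and 147 CPM when young and 118 and 101 when aged, and in MPP4 they held 65.4 and 61.3 when young and 89.7 and 99.1 when aged. Elsewhere it had 55.7 and 48.5 young against 46.4 and 41.3 aged in HSCs, 60.1 and 62.1 young against 65.4 and 70.4 aged in MPP1 and 75.9 and 76.7 young against 84.8 and 83.5 aged in MPP2, and further 78.0 and 79.3 young against 87.4 and 95.8 aged in MPP3, 334 and 281 young against 326 and 277 aged in MEPs and 91.9 and 97.6 young against 117 and 87.8 aged in CLPs. Hsph1 rose in MPP4 (0.58) and fell in GMPs (-0.50) and was called in no other fraction. Without the second young or second aged MPP4 library the rise was not called, and without the first young or second aged GMP library the fall was not called.

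The small heat shock protein gene Hspb1 was near the detection limit. It had 11 and 12 counts in young HSCs and 62 and 84 in aged HSCs, 0.836 ± 0.077 and 5.24 ± 0.55 CPM (SD, n = 2). The log2 fold change in HSCs was 2.64 ± 1.10 with an adjusted p of 0.141 by edgeR, and over the alternatives the adjusted p lay between 0.00687, in the fit of the 4 HSC libraries alone, and 0.418. In the other fractions it had 0 to 14 counts per library. A count of 0 allows up to 3 counts, 0.186 to 0.281 CPM depending on the library, which covers counting error alone.

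The units bound by heat shock factors were also searched in the other promoters. A run of 3 inverted units was searched as GAA NN TTC NN GAA or TTC NN GAA NN TTC on either strand. It was found in promoters of Chordc1, Dnajb6, Hspd1, Hspe1 and Hsph1, 5 of the 29 members with a promoter entry. It was found in 0.662% of 27025 genes, where a gene counted if any of its promoters held the run. The shorter pair, which every such run contains, was found in 14 of the 29. The runs of Hspd1 and Hspe1 are the same bases read on opposite strands, so both counts of members hold that stretch for 2 genes. Cct4, Hspa8, Hspa9, Hsp90ab1, Hsp90aa1 and Hsf1 had no entry. The following promoters hold a run of 3 units, written as above. They are shown beside the Hsp70 pair because these genes did not rise with it in GMPs. Elsewhere they differed, as Hspe1 was called higher in aged MPP1 to MPP4 and Hsph1 in aged MPP4, where the pair also rose. Chordc1 was called higher in no fraction.
Chordc1 (chr9:18292017-18292316, plus strand): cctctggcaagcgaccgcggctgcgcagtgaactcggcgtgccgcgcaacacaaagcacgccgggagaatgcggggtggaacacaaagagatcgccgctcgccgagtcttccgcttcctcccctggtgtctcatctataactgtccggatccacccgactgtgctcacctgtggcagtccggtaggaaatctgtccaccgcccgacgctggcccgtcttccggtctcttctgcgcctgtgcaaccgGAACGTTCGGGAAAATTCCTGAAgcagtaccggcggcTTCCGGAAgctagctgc
Hsph1 (chr5:149636287-149636586, minus strand): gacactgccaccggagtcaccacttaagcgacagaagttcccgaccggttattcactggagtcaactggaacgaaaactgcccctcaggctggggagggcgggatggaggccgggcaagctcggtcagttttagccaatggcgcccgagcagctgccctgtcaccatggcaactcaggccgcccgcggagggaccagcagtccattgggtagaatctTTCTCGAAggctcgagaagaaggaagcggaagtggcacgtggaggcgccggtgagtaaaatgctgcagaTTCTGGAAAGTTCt
Hspe1 (chr1:55087898-55088197, plus strand): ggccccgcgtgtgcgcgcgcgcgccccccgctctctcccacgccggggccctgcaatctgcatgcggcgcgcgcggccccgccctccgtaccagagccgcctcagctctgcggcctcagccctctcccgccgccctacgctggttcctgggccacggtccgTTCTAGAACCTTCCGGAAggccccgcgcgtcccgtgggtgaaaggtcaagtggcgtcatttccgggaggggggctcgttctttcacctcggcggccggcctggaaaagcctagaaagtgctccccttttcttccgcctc
Hspe1 and Hspd1 are transcribed away from each other from this stretch and share 112 exon bases, so reads there could be counted for either gene. A match of letters is a description and does not show that a factor was bound. The search took exact matches within 300 bases only, so units with other letters would be missed. The part of these promoters in the age differences was not tested.

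The heat shock factor gene Hsf1 itself rose in 3 fractions. It was 59.9 and 62.1 CPM in young and 95.9 and 97.2 in aged GMP libraries, a log2 fold change of 0.66 ± 0.08 (adjusted p 5.51e-06). In MEPs it was 61.9 and 67.0 in young and 108 and 101 in aged libraries, a change of 0.70 ± 0.08 (1.57e-06). Both rises were larger than the mean over the MPPs, by 0.59 in GMPs and 0.62 in MEPs, and both differences were called. The rise in CLPs, 0.36 ± 0.08 with an adjusted p of 0.00483, was not called without either young library or the first aged one nor in the fit of the 4 CLP libraries (adjusted p 0.000367 to 0.0848 over the alternatives). Hsf2 stood at 5 to 56 counts per library and was not called.

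TRiC is a double ring of 8 kinds of subunit, and its genes rose in aged MPPs and fell in aged GMPs. All 7 members of this group (Tcp1, Cct2, Cct3, Cct4, Cct5, Cct7 and Cct8) were higher in aged MPP2, MPP3 and MPP4, and 5 of 7 in MPP1, or 3 of 7 without the first young MPP1 library. In aged HSCs 1 of 7, Cct8, was called, and in aged GMPs all 7 were lower. In aged CLPs 3 of 7 were lower (Tcp1, Cct7 and Cct8), and in aged MEPs 1 (Cct4). The summed level of the 7 genes was 2197 to 2251 CPM in young and 2407 to 2416 in aged HSC libraries, and 2400 to 2503 against 3016 to 3028 in MPP1. It was 2716 to 2720 against 3612 to 3613 in MPP2, 2751 to 2789 against 3794 to 3920 in MPP3, and 2510 to 2792 against 3740 to 3868 in MPP4. Aged was thus 1.23, 1.33, 1.39 and 1.43 times young in MPP1 to MPP4, and the libraries of the 2 ages did not overlap.

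In GMPs the TRiC sum was 4662 to 4754 CPM in young and 3611 to 3720 in aged libraries, 1.28 times lower in aged cells. In MEPs it was 6087 to 6152 in the young and 5723 to 6057 in the aged libraries, and in CLPs 3207 to 3215 and 2806 to 2931. Aged GMPs therefore held no more TRiC transcript than aged MPP3 and MPP4, whereas in young mice GMPs stood well above every MPP.

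Among single subunits, Cct8 went furthest in MPPs. It read 359 and 384 CPM in young and 600 and 632 in aged MPP4 libraries, a log2 fold change of 0.73 ± 0.06 (adjusted p 1.27e-08). In GMPs it read 813 and 823 in young and 612 and 637 in aged libraries. Tcp1 rose from 272 and 303 CPM to 446 and 443 in MPP4 (0.63 ± 0.06, 1.61e-07) and fell from 617 and 614 to 397 and 424 in GMPs (-0.58). Cct4 rose by 0.45 ± 0.06 in MPP2 and was -0.62 ± 0.06 in GMPs (adjusted p 5.19e-07). In HSCs Cct8 was 294 and 280 CPM in young and 352 and 327 in aged libraries, 0.24 ± 0.06 with an adjusted p of 0.00618. That call was lost under 5 of 11 alternatives, among them leaving out either young HSC library or the first aged one, and the adjusted p ran from 2.59e-05 to 0.373.

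The same genes were compared between fractions by the difference of age differences. Relative to the average change of the 4 MPP fractions, in which all 7 rose by 0.30 to 0.55, all 7 were lower in GMPs, MEPs and CLPs. The median difference was -0.73 for GMPs, -0.40 for MEPs and -0.59 for CLPs, and Tcp1 in GMPs, at -1.07 ± 0.07 (edgeR, adjusted p 3.97e-10), was the furthest. In HSCs 4 of 7 had a smaller age difference than in MPPs (Tcp1, Cct3, Cct5 and Cct8, between -0.37 and -0.31). Cct2, Cct4 and Cct7 were also lower there, by -0.30, -0.30 and -0.22, but missed the threshold (edgeR, adjusted p 0.0169, 0.0117 and 0.0202). Under offsets for GC content and transcript length 4 of 7 remained called lower in GMPs. Without 1 GMP library 5 or 6 of 7 were called lower there, and in CLPs 0 without the first young or first aged library, 1 without the second young one.

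Mitochondrial chaperones also rose in aged MPPs. In MPP3 and MPP4 5 of 5 rose, and in MPP1 and MPP2 4 of 5, but in MPP1 1 of 5 without either young or the first aged library. In aged HSCs 1 of 5 rose (Hspd1). In aged CLPs Hspa9, Hspd1 and Hspe1 fell and Dnaja3, a J-domain partner of mortalin, rose. The Dnaja3 call was lost without any 1 of the 4 CLP libraries. The Hspa9 call was lost without either young library or the first aged one and in the fit of the 4 CLP libraries alone. In aged GMPs 1 fell (Hspd1), and in MEPs 0 were called. Hspd1, which encodes the Hsp60 ring that folds imported proteins, read 219 and 221 CPM in young and 276 and 249 in aged HSC libraries, and 326 and 320 against 385 and 388 in MPP1.

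In MPP2 Hspd1 read 374 and 371 in young and 487 and 478 in aged libraries, in MPP3 382 and 405 against 524 and 602, and in MPP4 347 and 362 against 578 and 621. Its log2 fold change in MPP4 was 0.76 ± 0.06 (adjusted p 2.77e-08), the largest of the members there after the Hsp70 pair. GMP libraries went the other way, with 820 and 869 in young and 591 and 602 in aged cells (-0.50). MEP libraries held 1550 and 1508 in young and 1480 and 1437 in aged cells, and CLP libraries 478 and 491 against 381 in both. The fall in CLPs was -0.35 ± 0.06 (adjusted p 0.000395), with an adjusted p of up to 0.0317 over the alternatives, reached in the fit of the 4 CLP libraries alone. The rise in HSCs (0.25 ± 0.06, adjusted p 0.00974) was lost under 6 of 11 alternatives, which included leaving out either young library or the first aged one (adjusted p up to 0.356).

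Hspe1, the Hsp10 lid of the Hsp60 ring, moved with Hspd1. It was 56.9 and 58.5 CPM in young and 91.2 and 84.6 in aged MPP1 libraries, a log2 fold change of 0.61 ± 0.10 (adjusted p 0.000194). The changes in MPP2, MPP3 and MPP4 were 0.57, 0.57 and 0.69. In CLPs it went from 108 and 103 to 77.9 and 71.9, -0.50 ± 0.10 (adjusted p 0.000816, up to 0.0273 over the alternatives, reached in the fit of the 4 CLP libraries alone). The MPP2 call was not made without the first young MPP2 library (adjusted p 4.10e-07 to 0.0129 over the alternatives). Relative to MPPs the age difference of Hspe1 was lower by 1.11 ± 0.11 in CLPs (edgeR, adjusted p 1.20e-07), and that of Hspd1 was lower by 0.98 in GMPs and 0.82 in CLPs. Trap1, a mitochondrial Hsp90, rose in MPP1 to MPP4 (0.34, 0.42, 0.50 and 0.55) and stood at 0.13 in GMPs and 0.16 in MEPs, neither of which was called.

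**Figure D3:**
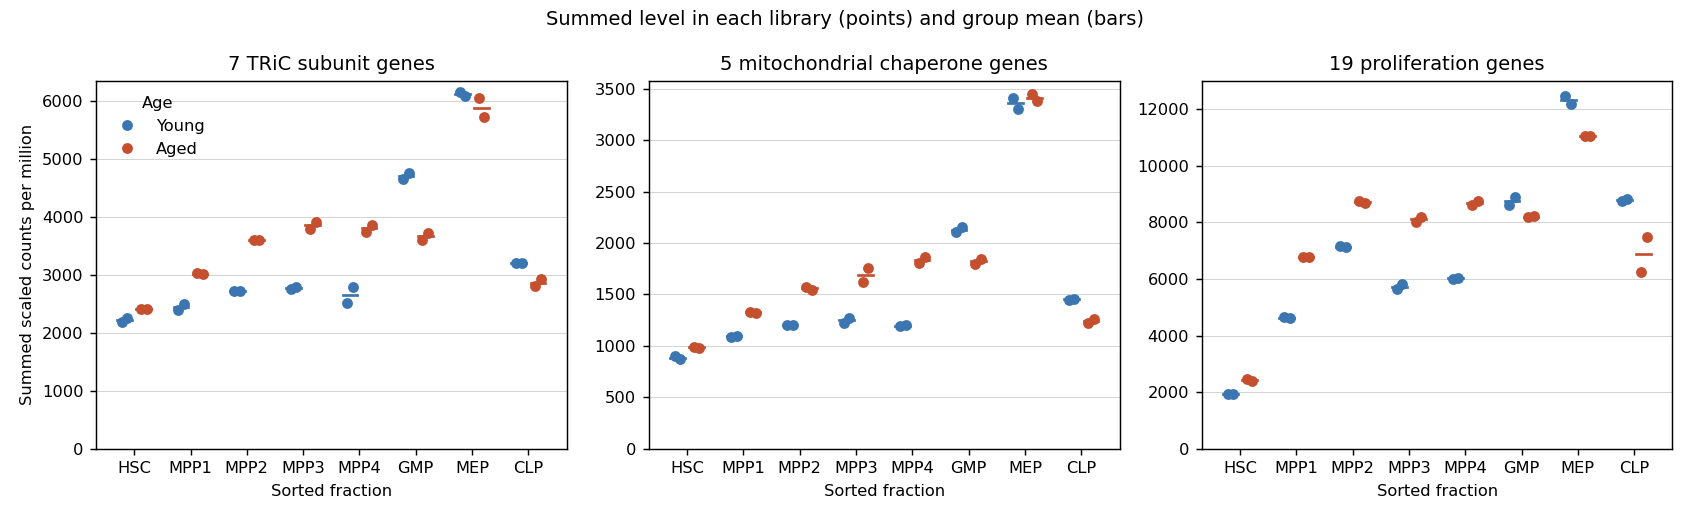
Summed scaled CPM of 7 TRiC genes, 5 mitochondrial chaperone genes and 19 proliferation genes in each library (points) and the group means (bars), by sorted fraction and age. All 3 sums are higher in aged than in young HSCs and MPPs and lower in aged GMPs and CLPs.

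Proliferation genes (cyclins, replication licensing factors and mitotic kinases) moved beside these 2 groups in several fractions. Of 19 genes in that list, 17 were higher in aged MPP1 cells, 11 in those of MPP2 and of HSCs, 18 for MPP3 and 15 for MPP4, and 0 were lower in any of them. The sum rose from 4606 to 4644 CPM in young to 6767 in both aged MPP1 libraries and from 6005 to 6044 in young to 8623 to 8759 in aged MPP4 libraries. In CLPs 11 were lower and 0 higher, with sums of 8760 to 8817 in the young and 6265 to 7496 in the aged libraries. In GMPs 8 were higher and 6 lower (8615 to 8893 in the young and 8193 to 8219 in the aged libraries), and in MEPs 1 was higher and 5 lower. The part of cell division in the chaperone result was not tested.

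Constitutive Hsp70 genes differed from one another. Hspa8, the Hsp70 of unstressed cells, was the most abundant member per length. Its mean over the young fractions was 1226 CPM per kilobase of transcript, against 5.41 for Hspa1a and 6.61 for Hspa1b. In GMPs Hspa8 read 4434 and 4531 CPM in young and 3099 and 2714 in aged libraries, a log2 fold change of -0.63 ± 0.08 (adjusted p 3.40e-06). In MEPs it read 5835 and 5624 against 4783 and 3949 and was lower (-0.39). In CLPs it read 1894 and 1884 in young and 2686 and 2249 in aged libraries and was higher (0.39 ± 0.08, adjusted p 0.000947). The CLP call was lost without either young library or the first aged one and in the fit of the 4 CLP libraries (adjusted p 3.41e-05 to 0.0517 over the alternatives). In HSCs and MPPs Hspa8 was between -0.13 and 0.11 and was not called. Its libraries there held 1829 and 1890 young against 1715 and 1690 aged in HSCs, 2105 and 2132 young against 2130 and 2131 aged in MPP1 and 2392 and 2352 young against 2362 and 2382 aged in MPP2. MPP3 and MPP4 had 2382 and 2464 young against 2558 and 2660 aged in MPP3 and 2529 and 2674 young against 2768 and 2794 aged in MPP4.

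Even in aged GMPs, the group with the most Hspa1a, that gene stood at 191 CPM per kilobase and Hspa1b at 198, beside 1214 for Hspa8. The division of reads within the pair is uncertain, so both of its values belong beside that of Hspa8. Hspa4, an Hsp110-type exchange factor, rose in MPP2, MPP3 and MPP4 (0.35, 0.37 and 0.62) and fell in GMPs (-0.40). Hspa14, an Hsp70 found on ribosomes, rose in MPP3 (0.52 ± 0.08, adjusted p 6.28e-05) and MPP4 (0.41) and fell in GMPs (-0.38) and CLPs (-0.36). The fall of Hspa14 in CLPs was lost without either young library or the first aged one and in the fit of the 4 libraries alone (adjusted p 5.15e-05 to 0.0669 over the alternatives). In GMPs all 4 members of the group fell. The rises of Hspa4 in MPP2 and MPP3 were lost without any 1 library, that of Hspa14 in MPP4 without the second aged one, and in GMPs the falls of Hspa14 and Hspa4 without either aged library and without the first and second young one in turn.

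Of the cytosolic Hsp90 genes, the stress-responsive Hsp90aa1 was called higher in aged HSCs, MPP1, MPP2 and MPP4. Hsp90aa1 had an age difference in HSCs that exceeded its mean over MPP1 to MPP4 by 0.07 ± 0.08, which was not called. It read 408 and 400 CPM in young and 576 and 551 in aged HSC libraries, a log2 fold change of 0.48 ± 0.08 (adjusted p 0.000176). MPP1 libraries held 540 and 571 in young and 740 and 707 in aged cells (0.38 ± 0.08, 0.00144), and MPP4 libraries 646 and 669 against 954 and 1065 (0.62). In MPP2 they held 676 and 701 against 863 and 939 (0.39), and in MPP3, where it was not called, 656 and 742 against 836 and 823 (0.25). GMPs held 1215 and 1181 in young and 908 and 996 in aged cells (-0.33), MEPs 1930 and 1844 against 2131 and 1806, and CLPs 916 and 881 against 768 and 778. The HSC call was lost without the second young HSC library and in the fit of the 4 HSC libraries (adjusted p 7.12e-09 to 0.0493 over the alternatives), and the MPP1 call without the first young or first aged MPP1 library (9.61e-06 to 0.0378). Hsp90ab1, the constitutive form, was called higher in MPP2, MPP4 and MEPs (0.29, 0.31 and 0.41), and its MPP2 call was lost without any 1 library and its MPP4 call without either young or the second aged one. Likewise the Hsp90aa1 call in MPP2 was lost without either young or the second aged library, and that in GMPs without the first young or first aged one.

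Some Hsp90 cochaperones rose in aged GMPs and MEPs. Ahsa1, which stimulates the ATPase of Hsp90, rose in the later 3 MPP fractions, GMPs and MEPs. It read 265 and 258 CPM in young and 401 and 378 in aged MEP libraries (0.58), and 275 and 255 against 315 and 320 in GMPs (0.26). MPP4 libraries held 154 and 158 in young and 208 and 219 in aged cells (0.45), and CLP libraries 223 and 219 against 214 and 211.

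Cdc37, which brings kinases to Hsp90, was higher in MPP3, MPP4, GMPs and MEPs (0.24, 0.31, 0.49 and 0.50). Stip1, the adaptor between Hsp70 and Hsp90, was higher in MPP3, MPP4 and MEPs (0.33, 0.35 and 0.34). Leaving out the first young or second aged library ended the MPP3 calls of both and the MPP4 call of Stip1, the second aged one the MPP4 call of Cdc37, and any MEP library but the second aged one the MEP call of Stip1. The Ahsa1 call in MPP2 was lost without any 1 library and that in GMPs without the second young or either aged one. Relative to MPPs, Cdc37 differed by 0.23 in GMPs and Cdc37 and Ahsa1 by 0.25 and 0.24 in MEPs, and all 3 differences were called. Chordc1, a heat-inducible Hsp90 cochaperone, was lower in GMPs (-0.69 ± 0.14, adjusted p 0.000591) and in MEPs (-0.68 ± 0.14, 0.000556). It stood at 191 ± 14 CPM in young and 118 ± 11 in aged GMPs and at 212 ± 8.1 and 133 ± 21 in MEPs (SD, n = 2). Both calls were lost without the second aged library, in GMPs with an adjusted p of up to 0.0156 over the alternatives and in MEPs of up to 0.0196. Dnajc7 was higher in MEPs (0.36), a call lost without any 1 of the 4 MEP libraries.

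Cytosolic J-domain proteins (Dnaja1, Dnaja2, Dnajb1, Dnajb4 and Dnajb6), which hand clients to Hsp70 and start its ATPase, mostly fell or were not called. Among these 5, leaving aside Dnajc7 and the mitochondrial Dnaja3 described with other groups, the only called rise was Dnaja2 in MPP4 (0.22), which was lost without any 1 of the 4 MPP4 libraries. Dnajb4 fell in MEPs, from 51.2 ± 2.9 CPM in young to 30.6 ± 1.7 in aged cells (SD, n = 2), a log2 fold change of -0.74 ± 0.11 (adjusted p 3.31e-05). It was also lower in MPP4 (-0.48) and in CLPs (-0.58 ± 0.14, adjusted p 0.00588). The MPP4 call was lost when any 1 library was left out, and the CLP call without the first young or either aged CLP library and in the fit of the 4 libraries (adjusted p 0.00305 to 0.150 over the alternatives). Dnaja1 fell in GMPs (-0.53) and MEPs (-0.34), Dnaja2 in GMPs (-0.23) and Dnajb6 in GMPs (-0.35). The MEP call of Dnaja1 was lost without the first young or second aged library, and the GMP calls of Dnaja2 and Dnajb6 without either aged library and without the second and first young one in turn.

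The Bag proteins release clients from Hsp70. Bag1 rose in each of MPP1 to MPP4 by 0.30 or 0.31 and fell in GMPs (-0.27) and MEPs (-0.24), and with offsets for GC content and length it was called in none of MPP1 to MPP4 nor in GMPs. Without the first young library none of its MPP calls was made, and without any 1 GMP library its GMP call was not made. The MEP call was lost without the second young or either aged MEP library and in the fit of the 4 MEP libraries alone. Its libraries held 459 and 489 CPM in young and 395 and 408 in aged MEPs. Bag3, which is induced with Hsp70 and steers proteins to autophagy, was called only in MEPs, at 14.9 ± 0.20 CPM in young and 26.2 ± 1.7 in aged cells (SD, n = 2). Its log2 fold change of 0.81 ± 0.21 had an adjusted p of 0.00536 and was lost in 7 of 11 alternatives, among them leaving out any 1 MEP library (adjusted p 0.000380 to 0.0589). Relative to MPPs the age difference of Bag3 in MEPs was 0.83 ± 0.24 (edgeR, adjusted p 0.00962).

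The whole set was compared between fractions in the same way. Averaged over the 4 MPP fractions, the age difference was a called rise for 24 members and a called fall for 2, Dnajb1 (-0.25) and Dnajb4 (-0.31),, where 18.9% and 17.7% of all genes were called. Against that mean, 4 members had a greater and 22 a smaller age difference in GMPs (12.7% and 13.8% of all genes). In MEPs 4 were greater and 19 smaller (10.2% and 14.7%). In CLPs 1 was greater, Hspa8, and 20 smaller (10.3% and 12.3%). In HSCs 0 were greater and 5 smaller (1.91% and 1.1%), the fifth being Hspa9 beside the TRiC genes named above. That HSC count depended on the method, as DESeq2 called 14 members in the same comparison and the offsets for GC content and length 8. The 4 comparisons with the MPP mean share the MPP libraries, so they are not independent of each other.

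Markers of other cells also moved with age. In MPPs the macrophage markers had 3, 4, 6 and 6 of 7 lower in MPP1 to MPP4, and their summed level was 2.95, 3.58, 3.92 and 5.41 times lower in aged cells. Erythroid markers had 3 of 8 lower in MPP2, 4 in MPP3 and 0 in MPP1 and MPP4, with sums 2.21, 4.14, 4.90 and 3.53 times lower in aged MPP1 to MPP4. Platelet markers had 3 of 6 lower in MPP2, 4 in MPP3 and 3 in MPP4, where the sum was 255 to 265 CPM in young and 81.4 to 82.2 in aged libraries. In CLPs 6 of 7 B-lineage markers were lower (2466 to 2544 CPM summed in young, 1132 to 1140 in aged libraries), as were 6 of 6 basophil and mast cell markers (1786 to 1842 and 8.96 to 16.4) and 7 of 7 macrophage markers (182 to 202 and 5.20 to 8.11), and 6 of 7 neutrophil markers were lower as well (599 to 609 and 90.8 to 167). Erythroid markers had 1 of 8 lower (1363 to 1409 and 77.7 to 515), T and NK markers 1 of 6 lower (80.4 to 80.8 and 53.6 to 62.2) and platelet markers 5 of 6 higher (38.4 to 39.8 and 115 to 186). In GMPs 2 of 6 basophil and mast cell markers (702 to 703 and 312 to 386), 5 of 8 erythroid markers (774 to 845 and 31.1 to 81.8), 5 of 7 macrophage markers (121 to 140 and 88.7 to 124) and 4 of 7 neutrophil markers (294 to 295 and 113 to 148) were lower. In MEPs 5 of 7 B-lineage markers (166 in both young and 0.430 to 0.843 in aged libraries) and 5 of 7 macrophage markers (8.90 to 12.2 and 0 to 0.516) were lower. Pax5 of the B-lineage list was at 0 in all 4 GMP libraries, and Prss34 and Fcer1a of the basophil list were at 0 in all 4 MEP libraries. In HSCs 6 of 7 neutrophil markers were higher (59.2 to 65.8 and 290 to 330), as were 2 of 6 T and NK markers (26.5 to 29.5 and 80.8 to 91.5), and in MPP2 and MPP3 6 of 7 neutrophil markers were lower. The part of such cells in the chaperone result was not tested.

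To place the age differences, the young fractions were compared with each other. Chaperone transcripts were lowest in HSCs and highest in MEPs. Of the 35 members, 28 had their lowest young mean in HSCs and 23 their highest in MEPs, and in aged cells 26 were lowest in HSCs and 26 highest in MEPs. An F-test over the 8 young fractions called 33 members, against 86.9% of all genes, with Hspb1 and Hsf2 not called. Against the mean of young MPP1 to MPP4, 3 members were higher and 21 lower in HSCs (19.2% and 18.9% of all genes). In GMPs 27 were higher and 2 lower (32.1% and 32.7%), in MEPs 29 higher and 0 lower (31.3% and 39.5%), and in CLPs 22 higher and 6 lower (28.2% and 25.2%). The median of all genes was -0.29 in the MEP comparison, so rises there are measured from a lower base, and the median of the members was 1.02.

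**Figure D4:**
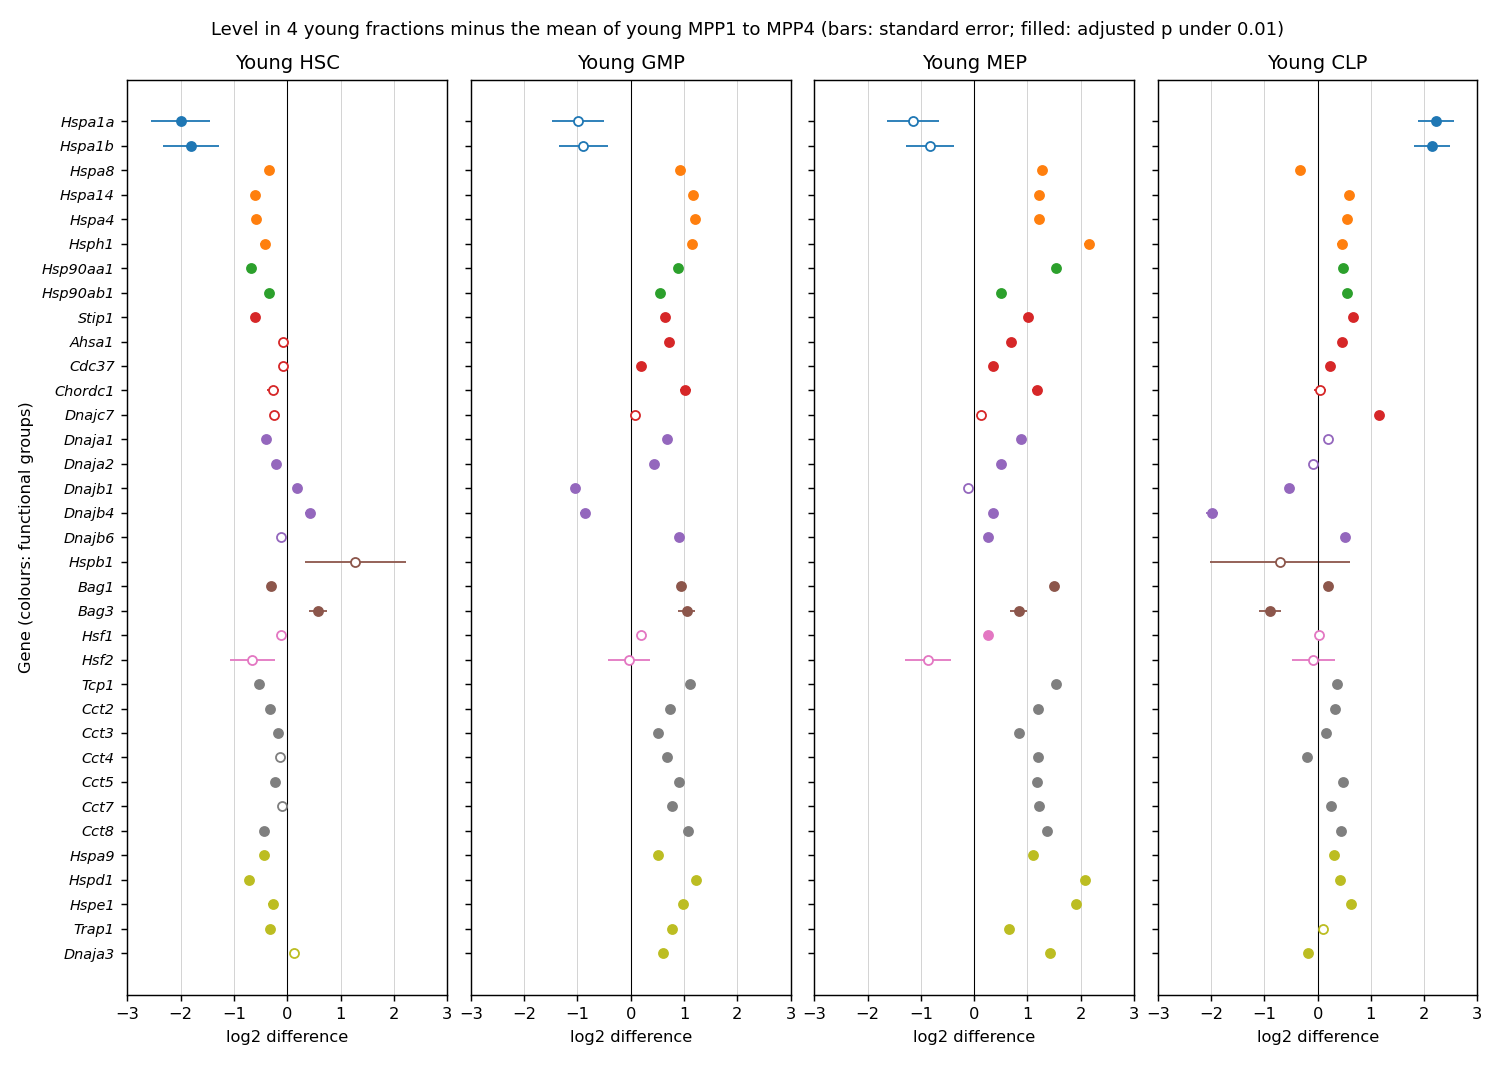
Level of the 35 chaperone genes (rows, coloured by functional group) in young HSCs, GMPs, MEPs and CLPs minus the mean of young MPP1 to MPP4, as a log2 difference with its standard error. Filled points have an adjusted p under 0.01, and Hspb1 is left out in GMPs and MEPs, where it had 0 counts. Most points lie left of 0 in HSCs and right of 0 in MEPs, while Dnajb1 and Dnajb4 lie left of 0 in GMPs and CLPs.

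After the Hsp70 pair, Hspd1 had the widest range of the young levels. It went from 220 CPM in young HSCs to 1529 in young MEPs, 6.96-fold, and was 2.09 ± 0.04 above the MPP mean in MEPs on the log2 scale. Hsph1 (2.15 ± 0.08), Hspe1 (1.91 ± 0.07), Hsp90aa1 (1.54 ± 0.05) and Tcp1 (1.54 ± 0.04) were also far above it. Cdc37 and Hsf1 were the flattest of the called members, with a highest young level 1.36 and 1.302 times the lowest.

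A few genes ran against this gradient. Dnajb1 was 1.04 below the MPP mean in young GMPs and 0.54 below it in young CLPs, and 0.18 ± 0.05 above it in HSCs. Dnajb4 was 0.42 above it in HSCs and 1.98 ± 0.11 below it in CLPs. The Hsp70 pair was highest in young CLPs, with Hspa1a 2.22 ± 0.34 above the MPP mean there and 2.00 ± 0.56 below it in HSCs. In aged mice the highest Hspa1a group was GMPs (565 CPM), and HSCs were again the lowest (31.3). Dnajc7 was highest in CLPs (1.16 ± 0.07 above the MPP mean) and Bag3 lowest there (0.89 ± 0.20 below it).

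Genes of the same pathways outside the set were counted too. Of 76 such genes in 6 lists, 72 were tested, as Hspa12a, Cct6b and Hsf4 did not pass the filter and Hikeshi had no row under that name. In MPP4 14 were higher and 7 lower, where 10.3% and 6.27% of all genes were. GMPs had 7 and 12 (9.93% and 8.97% of all genes), MEPs 17 and 7 (9.09% and 11.7%), and CLPs 4 and 4 (5.71% and 4.73%). The GMP count of higher genes and the CLP counts were near the shares of all genes. In HSCs 1 was higher and 2 lower (3.74% and 1.66%), in MPP1 5 and 3 (4.71% and 2.09%), in MPP2 9 and 4 (4.49% and 3.31%), and in MPP3 12 and 6 (8.14% and 5.79%). The mean over MPP1 to MPP4 was called higher for 25 and lower for 11 of the 72 (18.9% and 17.7%). From each list the gene called in the same direction in the most fractions is named here.

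Cct6a, a further TRiC subunit that is no member of the set, was also higher in aged MPPs and lower in aged GMPs, at 514 CPM in young and 738 in aged MPP4 (log2 fold change 0.52) and at 1036 and 670 in GMPs (-0.63). Lonp1, a mitochondrial protease, rose in 6 fractions, among them MPP4 (0.49), MEPs (0.59) and GMPs (0.27). Nudc, an Hsp90 cochaperone, went from 348 to 535 CPM in MEPs (0.62), and Stub1, a ubiquitin ligase bound to Hsp70, from 124 to 163 in MPP3 (0.40). Dnajb9, a J-domain protein of the endoplasmic reticulum, was called lower in 7 fractions, among them MPP4, from 90.5 to 39.7 CPM (-1.19). Only in CLPs was it higher, from 19.7 to 29.5 (0.58).

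Hmox1, heme oxygenase, is induced by oxidative stress and was lower in aged cells of all 8 fractions. It fell from 23.0 to 7.82 CPM in HSCs (-1.55) and from 31.4 to 3.92 in CLPs. In aged MEPs it had 0 counts in both libraries, which allows up to 0.281 CPM and makes it at least 14.0-fold lower than the 3.93 CPM of young MEPs. It also belongs to the macrophage list above, 7 of 7 genes of which were lower with age in the mean over MPP1 to MPP4.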

How the data were processed

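RNA-seq was made from 32 libraries, 2 for each of 8 sorted fractions at 2 ages, with a low-input kit and single reads. The authors aligned reads to mm10 with TopHat2 2.0.13 and Bowtie2 2.1.0 (versions per the submitters' processing notes) and deposited raw counts per gene made with StringTie. Whether counting used strand is not given in the sources used here, and no molecular identifiers were used. The deposited normalized table and the authors' 8 comparison tables, which hold fold changes and p-values, were not used.

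From the counts, scaled CPM and tests were computed with edgeR 4.0.16 in R 4.3.3 (TMM factors, filterByExpr filter, quasi-likelihood fit of all 16 groups, 14154 genes tested, Benjamini-Hochberg adjustment over all of them, calls at an adjusted p under 0.01). The common coefficient of variation was 0.113. Age differences were tested in each fraction and against their mean over MPP1 to MPP4. Alternatives were DESeq2 1.42.0, its size factors, no filter, a replicate block, offsets for GC content and length, the 4 libraries of a fraction alone, and leaving out each library. The script was tested on simulated data. Members and lists were chosen with earlier results of these data known. Full statistics were planned for at most the 6 called members with the largest absolute log2 fold change per comparison. Values of every library were planned for Hspa1a, Hspa1b, Hspb1, Dnajb1, Hsp90aa1, Hsph1, Hspd1, Hspa8 and up to 6 members called in the same direction in the most fractions. From each other pathway list the gene called in the same direction in the most fractions was named. Gene positions and lengths came from GENCODE and promoters from RefSeq. Counting limits cover counting error only.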

Additional observations from a re-analysis of the deposited data

Results flagged for a closer look

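The age difference of single members differed between fractions by edgeR's test of the difference itself, with adjusted p under 0.01. Each value here is the log2 age difference in a fraction minus its mean over MPP1 to MPP4, and all of them share the MPP libraries.

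In HSCs 0 members had a greater and 5 a smaller age difference: Cct3 (-0.37), Tcp1 (-0.33), Cct5 (-0.32), Cct8 (-0.31) and Hspa9 (-0.28). In GMPs 4 were greater and 22 smaller, with Hspa1a at 3.56, Hspa1b at 3.34, Tcp1 at -1.07, Cct4 at -1.01, Hspd1 at -0.98 and Cct8 at -0.94 the furthest. In MEPs 4 were greater and 19 smaller, with Bag3 at 0.83, Cct4 at -0.73, Chordc1 at -0.70, Tcp1 at -0.68, Cct8 at -0.63 and Hsf1 at 0.62. In CLPs 1 was greater and 20 smaller, with Hspa1a at -1.98, Hspa1b at -1.93, Hspe1 at -1.11, Hspd1 at -0.82, Tcp1 at -0.78 and Cct8 at -0.77.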

How the results depend on the processing

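Of the 131 calls with age, 131 were also made by DESeq2, 125 with its size factors, 118 without a filter, 115 with offsets for GC content and length and 86 in fits of the 4 libraries of a fraction, with 0 called in the opposite direction in any of these or under the replicate block, alone or with the offsets. Members called higher in HSCs numbered 9 by DESeq2, 3 without a filter and 3 in the 4-library fit. Members called lower in GMPs numbered 11 with the offsets, 11 with the replicate block and offsets together and 11 in the 4-library fit. The 4-library fits called 1 lower in MPP1, 1 in MPP4, 1 in MEPs and 0 in CLPs, and 0 higher in CLPs. The age difference of HSCs against MPPs was called for 14 members by DESeq2 and 8 with the offsets, and that of MEPs for 15 with the offsets, with or without the block.

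Without 1 library, counts higher were 0 to 6 in HSCs, 4 to 11 in MPP1, 9 to 14 in MPP2 and 0 to 3 in CLPs. Counts lower were 0 to 1 in HSCs, 1 to 1 in MPP4, 10 to 15 in GMPs, 3 to 7 in MEPs and 2 to 7 in CLPs, and 4 to 14 for HSCs against MPPs.

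The replicate block kept 130 of the 131 calls. The correlations of replicate differences between groups were low, from -0.0693 to 0.106 over 120 pairs of groups. Whether libraries with the same replicate number shared a pool or a sort was not tested. With DESeq2's size factors 1175 genes were higher and 1085 lower in MPP4, against 1459 and 888, and 337 and 113 against 270 and 155 for HSCs against MPPs.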
